A study of Xenopus tropicalis with 4 samples.

Results

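Transcripts of FGF receptors, sprouty genes and other feedback genes of the MAP kinase cascade were measured by RNA-seq in gastrula ectoderm of the frog Xenopus tropicalis. The set was defined by name as fgfr1, fgfr4, spry1, spry2, dusp6, etv1, etv4, etv5, il17rd and fos. Of these 10 genes, 9 had a row among the 28850 genes analysed and 8 passed the filter on low counts, out of 13756 genes tested; etv5 was not analysed here and etv4 was too low to test. Animal caps, the explanted ectoderm of the early embryo, were compared at Nieuwkoop-Faber stage 10.5. The embryos were wild type by the labels and grown at 25 °C. At the 1-cell stage they had received 22.5 ng of either a standard control morpholino oligonucleotide (MO) or a Foxh1 MO. Each group held 2 libraries, numbered 1 and 2, and paired values below give library 1 first. Separate clutches are not stated in the labels, so p-values reflect only how far these samples spread. That spread was largely estimated across genes and may be technical. The labels also do not say whether the Foxh1 MO blocks translation or splicing.

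Fibroblast growth factors (FGFs) bind receptor tyrosine kinases, and the activated receptors signal through adaptors, Ras and a chain of kinases to the MAP kinase ERK. ERK then changes the activity of nuclear factors, among them ETS family proteins, and immediate early genes such as fos are transcribed. Several genes switched on by the cascade encode its own inhibitors: sprouty proteins, the ERK phosphatase Dusp6 and the membrane protein Il17rd, also called Sef. In the frog gastrula this pathway is known for mesoderm formation and for a part in neural induction from ectoderm.

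Total expected counts ranged from 25632619 to 29800530 per library, and ribosomal RNA gene models took 28.3% to 34.02% of them. The targeted gene, foxh1, had 79.3 and 71.2 CPM (counts scaled to library size) in the controls. Its level was higher, 264 and 174 CPM, where the label was Foxh1 MO (2.91-fold, edgeR adjusted p = 0.000431). RNA abundance is no measure of Foxh1 protein, so depletion of the protein cannot be read from it. Surface ectoderm markers were present in every library: all 12 listed were tested, led by cldn6.1 and epcam, and their summed level in TPM, which also corrects for transcript length, was 5234 to 5786. Those 2 genes dominate the sum and were not called, though cldn6.1 was 1.35-fold lower (edgeR adjusted p = 0.0787). Of the 12 markers 6 were called higher and 1 lower with the Foxh1 MO. Over all tested genes 4.17% were called higher and 4.07% lower. The rises included dlx3 2.32-fold, foxi1 1.87-fold, grhl1 1.76-fold and tfap2a 1.60-fold, and krt12.4 was 1.96-fold lower (edgeR). Mesoderm markers summed to 360 and 380 TPM in the controls, against 408 and 405 TPM in the libraries labelled Foxh1 MO. Most of that sum was ventx2.1, which ectoderm also expresses, and msgn1 was at 0. Endoderm markers summed to 28.3 and 33.1 TPM against 15.6 and 17.4 TPM, with nodal1 and nodal2 at 0, and 2 of 9 tested were called lower. Neural plate markers summed to 1843 and 1720 TPM against 1153 and 1125 TPM, and 8 of 11 tested were called lower. Of 5 tested organizer markers 4 were lower, admp 15.1-fold, chrd.1 12.9-fold, lhx1 3.32-fold and otx2 1.89-fold, and not, the fifth, was 1.58-fold higher. The summed level of all 11 listed organizer genes was 137 and 126 TPM against 197 and 146 TPM. Most of it came from the gene not, at 111 and 99.5 TPM against 186 and 135 TPM. The part of these shifts in the results below was not tested. In bulk RNA, fewer cells of a type and less RNA per cell cannot be told apart.

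The fold changes of the set had both signs, and differences between its genes were not tested. The sprouty gene spry2 and the immediate early gene fos were called higher in the libraries labelled Foxh1 MO. None of the 8 tested genes was called lower. So 2 of 8 were called higher, where 4.17% of all tested genes were, and 0 of 8 were called lower, where 4.07% of all tested genes were (edgeR quasi-likelihood test, adjusted p under 0.05). At an unadjusted p under 0.05 by edgeR, 3 were higher and 1 was lower, but the share of all tested genes there was not counted. DESeq2 and limma-voom each called 1 higher and 0 lower. Over all genes DESeq2 called 484 higher and 422 lower of 14166, and limma-voom 555 and 522 of 13756. In CPM the groups were apart for 4 of the 8, a share close to the 50.8% of all tested genes. The median log2 fold change of the 8 was -0.10, beside -0.00019 over all tested genes. Among the 8, 3 values were positive and 5 negative, where 6873 of all tested genes were positive and 6883 negative. In the main edgeR fit 574 of all genes were called higher and 560 lower. On log2(TPM + 1) that split was 541 and 807, and on log2(TPM + 0.1) it was 567 and 872.

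**Figure D1:**
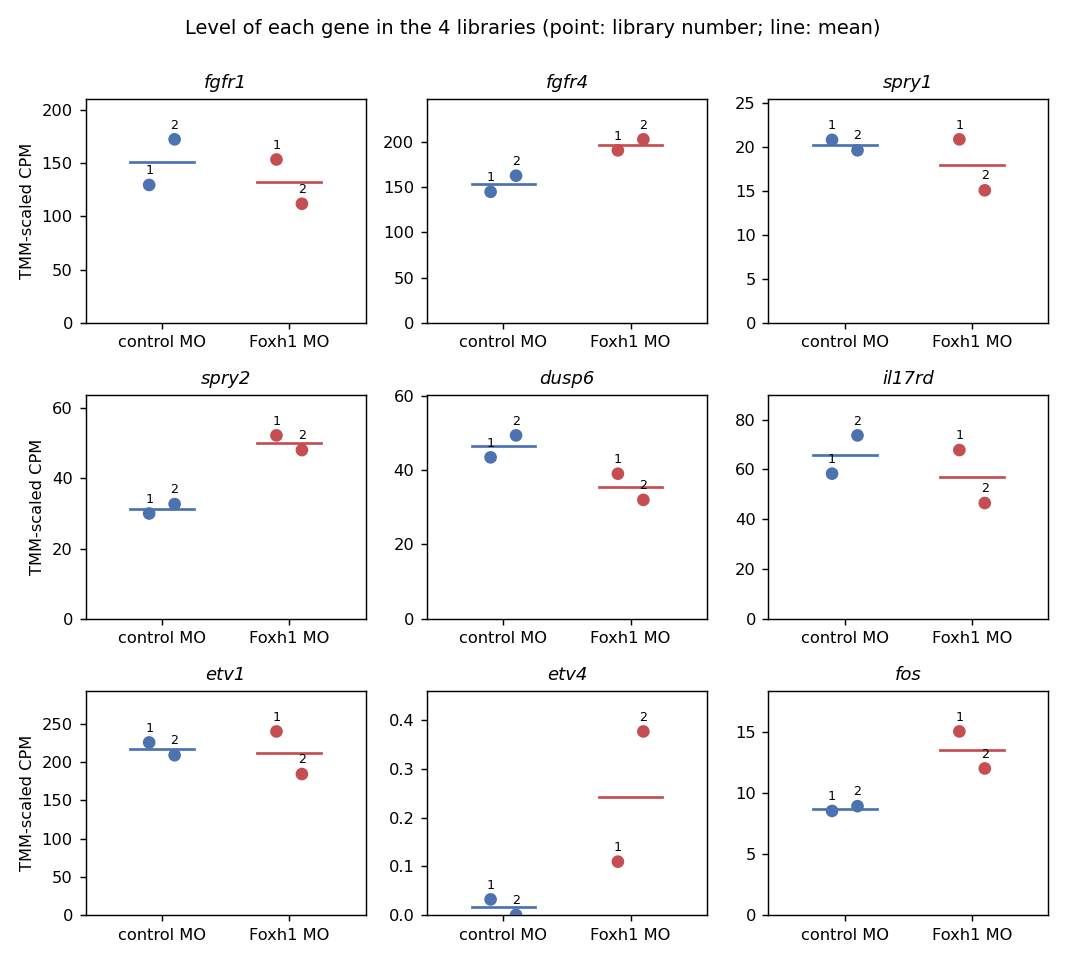
Level of each of the 9 genes in CPM on a linear axis from 0, one panel per gene, with a point per library (numbered 1 or 2) and a line at the group mean. Both Foxh1 MO points lie above both control points for fgfr4, spry2, fos and the nearly absent etv4, and below them for dusp6.

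Among the receptors, fgfr1 had 130 CPM in control MO 1, 172 CPM in control MO 2, 154 CPM in Foxh1 MO 1 and 112 CPM in Foxh1 MO 2. The groups overlapped, and the libraries of each group differed 1.33-fold and 1.37-fold. The log2 fold change, Foxh1 MO minus control MO, was -0.19 (SE 0.18, 95% interval -0.58 to 0.20, edgeR adjusted p = 0.622). For fgfr4, a receptor studied in frog neural induction, the values were 145 and 163 CPM in the controls, against 191 and 203 CPM in the libraries labelled Foxh1 MO. Both of the latter were above both controls, by 1.28-fold on average (log2 fold change 0.36, SE 0.14), but the gene did not pass over all genes (edgeR adjusted p = 0.141). Without Foxh1 MO 1 it did (adjusted p = 0.0309), as did fgfr1 in the opposite direction (log2 fold change -0.43, adjusted p = 0.0312). In that setting 16.4% of all tested genes were called.

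The other receptor genes, outside the named set, were fgfr2 and fgfr3. Named after its values were seen, fgfr2 stood at 63.2 and 104 CPM in the controls and at 56.4 and 44.8 CPM in the libraries labelled Foxh1 MO. Its log2 fold change of -0.72 (SE 0.21) lay just outside the threshold by edgeR (adjusted p = 0.0506) and inside it by DESeq2 (adjusted p = 0.0178). It also passed by edgeR with upper-quartile factors (adjusted p = 0.00544), without a filter (0.00202), with a filter of 1 CPM (0.0432) and with a replicate block (0.00820). Limma on log2(TPM + 1) and log2(TPM + 0.1) gave adjusted p of 0.00671 and 0.00362. It did not pass by limma-voom (0.0631), or by edgeR with an effective length offset (0.0518) or without ribosomal RNA gene models (0.0520). Leaving out control MO 2, its highest library, gave -0.32 (adjusted p = 0.554), and leaving out control MO 1 gave -1.04 (adjusted p = 0.000132). For fgfr3 the log2 fold change was -0.29 (edgeR adjusted p = 0.468). In TPM, fgfr4 made up 43.0% and 36.7% of the summed level of the 4 receptor genes in the controls, against 47.9% and 56.8% in the libraries labelled Foxh1 MO. The share of fgfr2 was 19.6% and 26.1% in the controls and 14.7% and 13.1% in the others. The fgfr1 share was 34.4% and 34.9% in the controls, and 34.8% in Foxh1 MO 1 but 28.3% in Foxh1 MO 2. These shares are descriptions and were not tested.

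**Figure D2:**
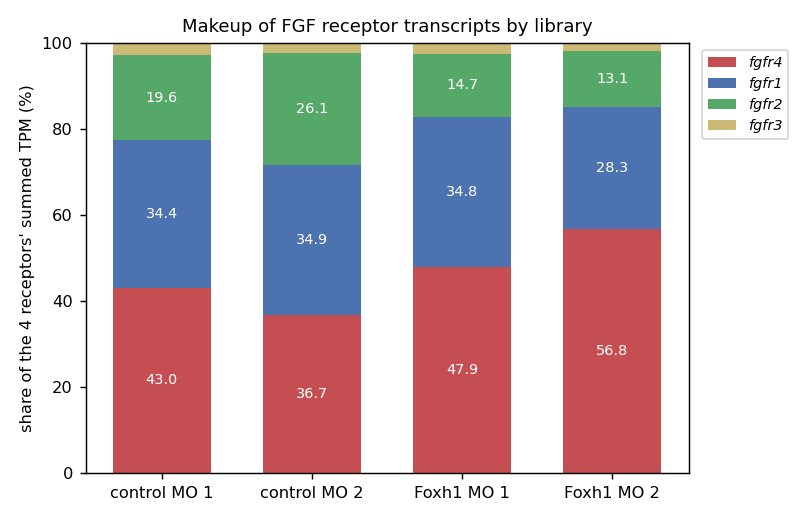
Share of each receptor gene in the summed TPM of fgfr1 to fgfr4, in percent, as stacked bars with 1 bar per library. The fgfr4 segment is larger in both libraries labelled Foxh1 MO (47.9% and 56.8%) than in the controls (43.0% and 36.7%), and the fgfr2 segment is smaller.

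Of the sprouty genes, spry2 was the one called. Its product is an intracellular inhibitor of receptor tyrosine kinase signalling. Its level was 29.99 CPM in control MO 1, 32.7 CPM in control MO 2, 52.2 CPM in Foxh1 MO 1 and 48.1 CPM in Foxh1 MO 2. The libraries within each group lay close together, and the groups were well apart. The rise was 1.60-fold, from 31.3 ± 1.901 to 50.1 ± 2.96 CPM (SD, n = 2 libraries; log2 fold change 0.68, SE 0.14, 95% interval 0.38 to 0.98, edgeR adjusted p = 0.0104). The authors' deposited table gave a log2 fold change of 0.68 and a false discovery rate of 0.0071. The call ended without control MO 1 (log2 fold change 0.62, adjusted p = 0.0707) and held in the other 13 of 14 alternatives.

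The related inhibitor gene spry1 stood at 20.8 and 19.6 CPM in the controls and at 20.8 and 15.0 CPM in the libraries labelled Foxh1 MO. Foxh1 MO 1 was level with the controls and Foxh1 MO 2 was below them. The log2 fold change was -0.17 (SE 0.17, 95% interval -0.55 to 0.21, edgeR adjusted p = 0.644). The difference between the changes of spry1 and spry2 was not tested. The other sprouty genes were close to absent: spry4 had under 1 CPM in every library and spry3 had 1 count over all libraries. In summed sprouty TPM, spry2 made up 68.9% and 71.4% in the controls, against 79.0% and 82.8% in the libraries labelled Foxh1 MO.

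The gene dusp6 encodes a phosphatase that inactivates ERK and is a widely used readout of FGF signalling. It stood at 43.4 and 49.3 CPM in the controls and at 39.0 and 32.0 CPM in the libraries labelled Foxh1 MO, so both of the latter were lower. The log2 fold change was -0.38 (SE 0.15, 95% interval -0.71 to -0.06) at an unadjusted p of 0.0246, which did not pass over all genes (edgeR adjusted p = 0.152). Without Foxh1 MO 1 the log2 fold change was -0.53, and the lack of a call depended on that library. The membrane inhibitor gene il17rd stood at 58.3 and 73.7 CPM in the controls and at 67.8 and 46.5 CPM in the libraries labelled Foxh1 MO. Its groups overlapped, and the 2 libraries labelled Foxh1 MO differed 1.46-fold. The log2 fold change was -0.21 (SE 0.18, 95% interval -0.61 to 0.19, edgeR adjusted p = 0.584). Without Foxh1 MO 1 it was -0.50, and for il17rd too the lack of a call depended on that library.

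The ETS factor gene etv1, known in Xenopus as an FGF-responsive gene under the name Er81, was the most abundant of the set in the controls. It stood at 226 and 209 CPM there and at 240 and 185 CPM in the libraries labelled Foxh1 MO. The latter lay on both sides of the controls. The log2 fold change was -0.03 (SE 0.15, edgeR adjusted p = 0.935), with a 95% interval of -0.36 to 0.30. Its relative etv4 was nearly absent, with 1 and 0 counts in control MO 1 and 2 and 3 and 10 in Foxh1 MO 1 and 2. The ratio of its summed count rates was 14.4, with an exact 95% interval of 2.17 to 613 that covers counting error only. Of those 13 counts in the libraries labelled Foxh1 MO, 10 came from 1 library.

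The gene fos encodes a subunit of the AP-1 transcription factor and is transcribed within minutes of ERK activation, and also after handling or wounding of tissue. It stood at 8.54 and 8.94 CPM in the controls and at 15.1 and 12.0 CPM in the libraries labelled Foxh1 MO. Both of the latter were above both controls, and they differed from each other more than the controls did. The rise was 1.55-fold, from 8.74 ± 0.278 to 13.6 ± 2.15 CPM (SD, n = 2 libraries; log2 fold change 0.63, SE 0.17, 95% interval 0.259 to 1.008, edgeR adjusted p = 0.0410). In the authors' deposited table its false discovery rate was 0.0494. The call ended in 7 of 14 alternatives: on leaving out either control (adjusted p 0.0938 for control MO 1 and 0.0638 for control MO 2) or Foxh1 MO 1 (0.136), by DESeq2 (0.0834), by limma-voom (0.0517), and on log2(TPM + 1) and log2(TPM + 0.1) (0.0921 and 0.0703). The sign was positive in all of them. For the 6 genes of the set that were not called, the authors' deposited table gave false discovery rates from 0.222 for dusp6 to 0.956 for etv1.

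Genes that handling of tissue can raise were read beside fos. Of 15 such immediate early and stress genes, all tested, jun was called higher and ddit4 lower while 13 were not called, with a median log2 fold change of 0.10. Of the 15 fold changes 10 were positive and 5 negative, where 6873 of all 13756 tested genes were positive. The summed level of these genes was 788 and 772 TPM in the controls, against 738 and 781 TPM in the libraries labelled Foxh1 MO. The groups overlapped. Low genes weigh little in this sum: jun held 4.82 and 4.08 TPM of it in the controls. Among the 15 genes egr1, another immediate early gene that ERK induces, was near the floor. It had 0.319 and 0.317 CPM in the controls and 0.438 and 0.490 CPM in the others, and was not called (edgeR adjusted p = 0.599). The more abundant ier2, named after its values were seen, had 33.6 and 49.8 CPM in the controls and 60.7 and 59.6 CPM in the others. It was not called either (edgeR adjusted p = 0.0896). Other immediate early genes, named after their values were seen, went both ways. Of these, junb also belongs to the 15. The log2 fold change was -0.60 for egr2, -0.38 for fosl2, -0.26 for jund and -1.31 for fosb. It was 1.05 for fosl1 and 0.25 for junb. None of them was called by edgeR, and fosb and fosl1 were near the floor. The part of handling in the level of fos was not tested.

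**Figure D3:**
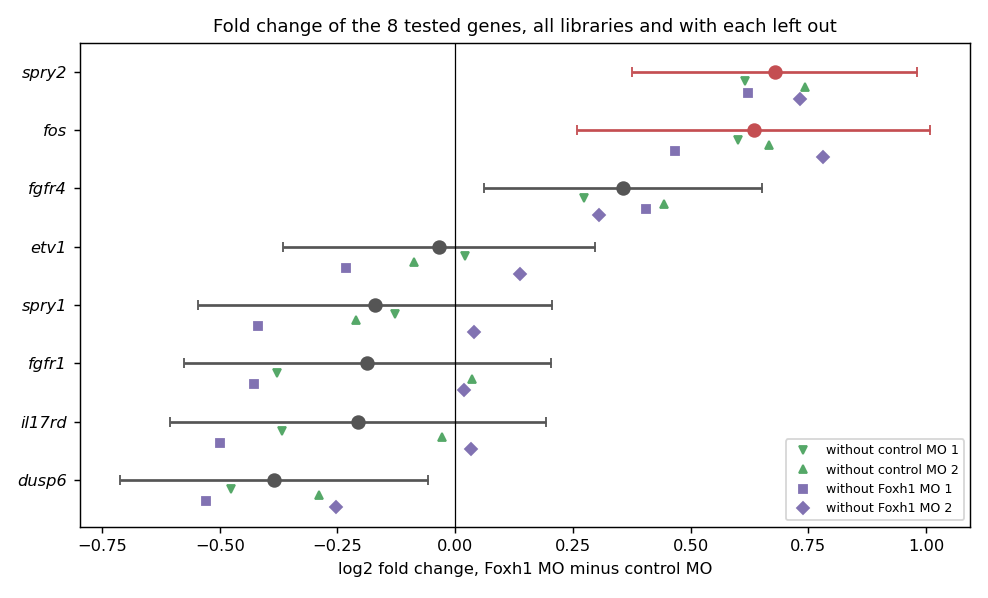
Log2 fold change (Foxh1 MO minus control MO) of the 8 tested genes with its 95% interval (large points and bars, red where called), and the value with each library left out (small symbols). The value stays above 0 for spry2, fos and fgfr4 and below 0 for dusp6 whichever library is left out, and crosses 0 for etv1, spry1, fgfr1 and il17rd.

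The 2 libraries labelled Foxh1 MO differed in most of these genes. In 7 of the 8, Foxh1 MO 2 was below Foxh1 MO 1, where 49.6% of all tested genes were. The difference was 1.46-fold for il17rd, 1.38-fold for spry1 and 1.37-fold for fgfr1, and 1.09-fold for spry2, the smallest of the 7. For fgfr4, the exception, Foxh1 MO 2 was the higher library. In the controls 6 of the 8 were higher in control MO 2, where 52.8% of all tested genes were.

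Levels were compared between genes in TPM. In the controls the order was etv1 (119 and 101 TPM), fgfr4 (94.2 and 97.0), fgfr1 (75.4 and 92.5), dusp6 (43.0 and 44.6), spry2 (37.6 and 36.7), il17rd (33.0 and 38.3), spry1 (16.5 and 14.2) and fos (10.5 and 9.95). Only spry2 and il17rd, as neighbours in that order, overlapped between libraries. In the libraries labelled Foxh1 MO, fgfr4 (113 and 125 TPM) and etv1 (115 and 92.0 TPM) overlapped, and spry2 (58.1 and 56.5 TPM) stood above dusp6 (35.3 and 29.9 TPM). By control TPM, etv1 lay above 88.4% of all tested genes and fos above 41.5%.

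Ratios within a library do not depend on how libraries are scaled to one another; the pairs of genes were chosen after their values were seen. The ratio of spry2 to dusp6, both feedback inhibitors, was 0.873 and 0.822 in the controls, against 1.65 and 1.89 in the libraries labelled Foxh1 MO. The ratio of spry2 to spry1 was 2.28 and 2.58 against 3.85 and 4.998. Both ratios were higher in each library labelled Foxh1 MO than in either control. The ratio of fgfr4 to fgfr1 was 1.25 and 1.05 against 1.38 and 2.01. For etv1 to dusp6 it was 2.76 and 2.26 against 3.27 and 3.07.

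**Figure D4:**
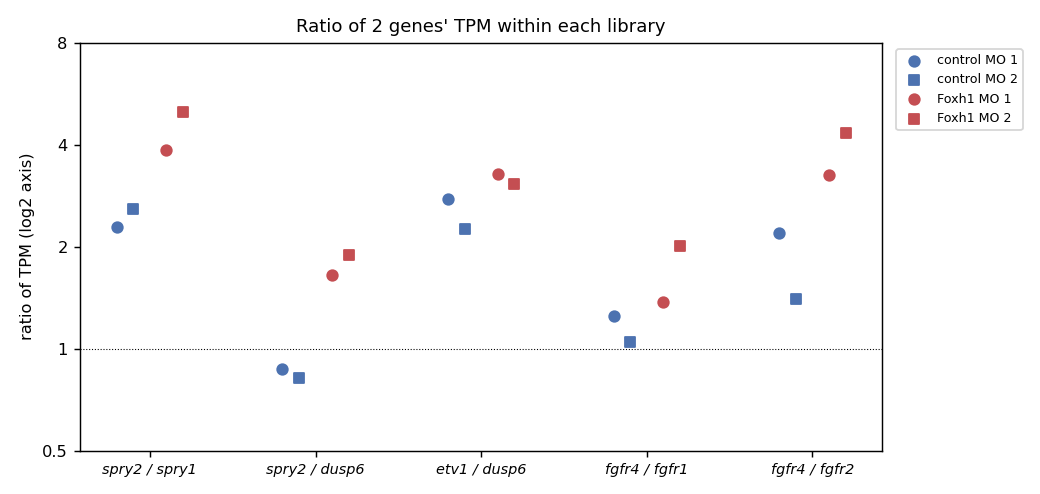
Ratio of the TPM of 2 genes within each library, on a log2 axis, for 5 pairs of genes; blue points are controls and red points libraries labelled Foxh1 MO. The spry2 to dusp6 ratio lies below 1 in both controls (0.873 and 0.822) and above 1 in both other libraries (1.65 and 1.89).

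The rest of the pathway was read from 7 lists with 107 other genes, of which 102 were in the files and 86 were tested. In the libraries labelled Foxh1 MO 8 of these rose, 1 fell and 77 were not called, where 4.17% of all tested genes were called higher and 4.07% lower. The median log2 fold change was -0.12, beside -0.00019 over all tested genes. Of the 86 values 53 were negative, where 6883 of all 13756 tested genes were. The groups were apart for 45 of the 86, or 52.3%, near the 50.8% of all tested genes. The count of genes called lower depended on single libraries and rose most without Foxh1 MO 1. In that fit more of all tested genes were called lower as well.

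FGF ligand transcripts were scarce in these caps. Of 13 ligand genes in the files 4 were tested and none was called (0 at an unadjusted p under 0.05 by edgeR, and 0 by DESeq2 or limma-voom). The most abundant was fgf8, at 3.22 and 4.61 CPM in the controls, against 2.52 and 3.58 CPM in the libraries labelled Foxh1 MO. For fgf2 the log2 fold change was -0.39 (edgeR adjusted p = 0.654). Its control libraries held 1.498 and 4.57 CPM.

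Of 17 tested receptors, co-receptors and heparan sulfate factors outside the named set, 1 rose and 16 did not pass. The gene that rose was sulf1, which encodes a sulfatase that trims heparan sulfate, a cofactor of FGF binding. It stood at 9.91 and 9.32 CPM in the controls and at 17.2 and 16.4 CPM in the libraries labelled Foxh1 MO (1.74-fold with SE 0.16 on the log2 scale, edgeR adjusted p = 0.00807), and was called in all 14 alternatives. The syndecan genes sdc4 and sdc2, the most abundant of the list, had log2 fold changes of -0.20 and -0.16, both not called. Of 13 adaptor genes 1 rose: frs3, which encodes a docking protein of FGF receptors, from 4.33 ± 0.0419 to 7.86 ± 1.05 CPM (SD, n = 2; edgeR adjusted p = 0.0188). Its call ended in 4 of 14 alternatives, among them leaving out Foxh1 MO 2 (adjusted p = 0.116). The adaptor genes crk and crkl had log2 fold changes of 0.05 and -0.19.

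Within the cascade from Ras to ERK, 2 of 14 tested genes rose and 12 did not pass. The Ras gene hras was at 109 and 103 CPM in the controls and at 167 and 189 CPM in the libraries labelled Foxh1 MO (1.68-fold, log2 fold change 0.75, SE 0.14, edgeR adjusted p = 0.00582). Its relatives kras and nras, named after their values were seen, had log2 fold changes of -0.26 and -0.13 and were not called. The gene rasa2, whose product switches Ras off, rose from 23.9 ± 1.57 to 36.5 ± 1.48 CPM (SD, n = 2; edgeR adjusted p = 0.0198). The kinase gene map2k1 was not called (log2 fold change -0.09). Without control MO 2 neither rise passed (adjusted p 0.0561 for hras and 0.141 for rasa2), and without Foxh1 MO 2 that of rasa2 did not (0.0647). On log2(TPM + 1) and log2(TPM + 0.1) rasa2 was not called either (adjusted p 0.110 and 0.0888).

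Among 13 other tested inhibitors of the cascade none was called, and DESeq2 and limma-voom called 0. At an unadjusted p under 0.05 by edgeR 2 were higher, with the share of all tested genes not counted. The phosphatase gene dusp1 was at 35.4 and 33.6 CPM in the controls, against 36.4 and 37.4 CPM in the libraries labelled Foxh1 MO. The leucine-rich repeat receptor gene lrig3 was not called (log2 fold change -0.17, edgeR adjusted p = 0.584).

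Of 20 other tested nuclear factors and immediate early genes, 3 rose, 1 fell and 16 were not called. The ETS factor gene ets1 rose from 105 ± 11.5 to 166 ± 3.12 CPM (SD, n = 2; 1.58-fold, edgeR adjusted p = 0.0119). The gene jun, whose product pairs with Fos in AP-1, rose 1.77-fold from 4.02 and 3.73 CPM to 6.68 and 7.05 CPM (edgeR adjusted p = 0.0232). The ETS factor gene elk1 was near the floor, at 0.446 and 0.492 CPM against 1.72 and 0.981 CPM (edgeR adjusted p = 0.0448). The gene that fell was cic, which encodes Capicua, a repressor that ERK inactivates, at 31.8 and 38.5 CPM in the controls, against 26.3 and 15.99 CPM in the libraries labelled Foxh1 MO (1.66-fold lower, edgeR adjusted p = 0.0467). The abundant genes ets2 and ier5 had log2 fold changes of -0.27 and -0.11, not called. Single libraries ended these calls: ets1 without control MO 2 (adjusted p = 0.172), jun without control MO 2 or Foxh1 MO 2 (0.0641 and 0.0930), cic without the same libraries (0.0794 and 0.230), and elk1 without either control (0.0862 and 0.0607) or Foxh1 MO 1 (0.246). Over all 14 alternatives elk1 lost its call in 8, jun and cic in 3 each, and ets1 in 1.

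Of 5 tested mesoderm genes known to depend on FGF in the frog gastrula, 1 rose and 4 did not pass. The homeobox gene cdx4 was at 2.90 and 4.995 CPM in the controls and at 7.59 and 7.96 CPM in the libraries labelled Foxh1 MO (edgeR adjusted p = 0.0270; 0.116 without control MO 1 and 0.0684 without Foxh1 MO 2). Its relative cdx2 was lower in both libraries labelled Foxh1 MO, with a log2 fold change of -0.66 that did not pass (edgeR adjusted p = 0.0962). Named after its values were seen, cdx1 had a log2 fold change of -0.97 that did not pass either (edgeR adjusted p = 0.0562). The gene tbxt stood at 2.84 and 4.89 CPM against 3.98 and 5.24 CPM. Of the 5 fold changes 3 were positive and 2 negative.

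**Figure D5:**
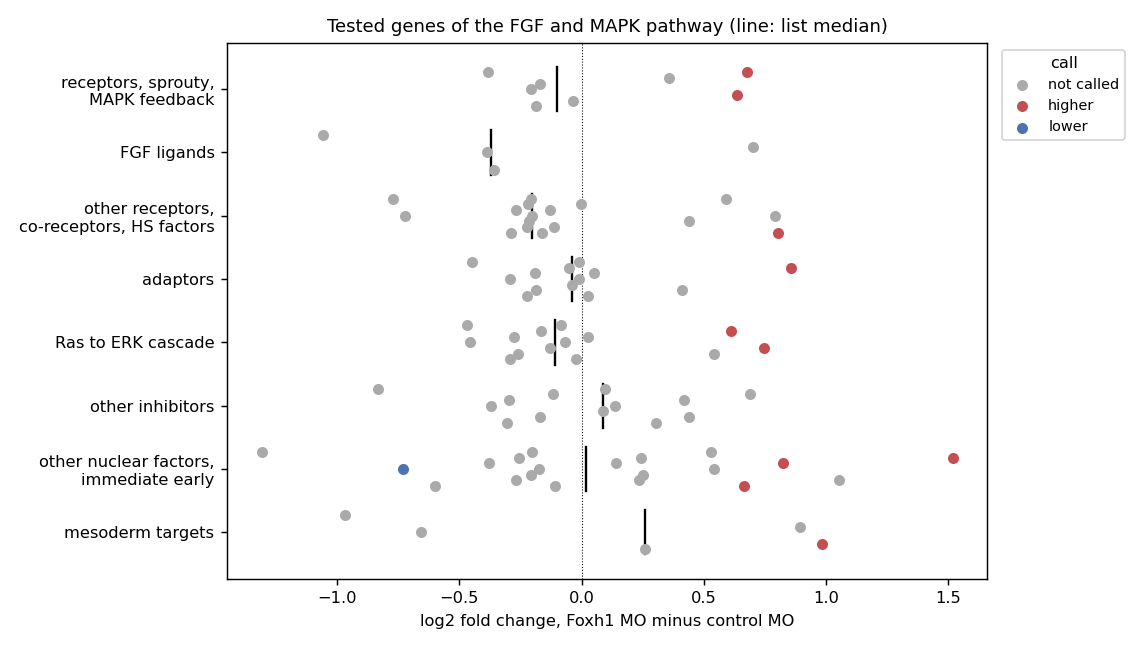
Log2 fold change (Foxh1 MO minus control MO) of every tested gene of the named set and of the 7 pathway lists, 1 row per list; red points were called higher, the blue point lower and grey points not called, and the line is the list median. Medians run from -0.37 for the 4 ligands to 0.26 for the 5 mesoderm genes, and called genes are scattered over 6 of the 8 rows.

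By the distance between profiles over the 4 libraries, the genes nearest to spry2 among 8603 compared were lrp5, zxdc and gata2. The Wnt co-receptor gene lrp5 was at 20.2 and 22.2 CPM in the controls, against 35.3 and 31.5 CPM in the libraries labelled Foxh1 MO. The distances, in log2(CPM + 1) after removing each gene's mean, were 0.042 for lrp5 and zxdc and 0.048 for gata2. Those nearest to fos were rapgef2, dbf4b and nckap5l, at distances of 0.014, 0.030 and 0.036. With 4 libraries many genes share a profile, and nothing about control follows from likeness.

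Read assignment and transcript makeup were looked at per gene. All 36 expected counts of the 9 genes were whole to within 0.005, among them the 0 of etv4 in control MO 2. Of the counts above 0 of all tested genes, 90.6% were whole. None of the 9 genes overlapped another annotated gene in the RefSeq table. For fgfr1, with 6 annotated transcripts, the mean transcript length was 4218 and 4198 bases in the controls and 4183 and 4181 bases in the libraries labelled Foxh1 MO. For spry2, with 4 transcripts, it was 2088 and 2118 against 2137 and 2095 bases, and the groups overlapped.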

How the data were processed

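Poly(A) RNA libraries of 4 animal cap samples were analysed. The submitters' processing notes name RSEM 1.3.3 and STAR 2.7.3a, besides R 4.1.2 with edgeR 3.36.0. Which genome build and which strand setting were used is not given in the sources used here. Per the file headers, each deposited table held an expected count, a TPM, an FPKM and 2 lengths per gene. The deposited FPKM values were not used. A comparison table deposited by the authors lists log2 CPM and log2 fold change, an F score, a false discovery rate and a p-value, and was used only where named. No columns of other samples were present (0).

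Rounded expected counts went into edgeR 4.0.16 under R 4.3.3 (filterByExpr with minimum count 10 and total 15, TMM scaling, quasi-likelihood F test between the 2 groups of 2 libraries without covariates, Benjamini-Hochberg over 13756 genes, called under 0.05). The SE is the log2 fold change over the square root of F, and intervals are 95% on 12.5 degrees of freedom. Of these, 2 are residual and 10.5 are prior degrees of freedom, borrowed across genes. CPM is TMM-scaled. The script was checked on simulated counts. DESeq2 1.42.0 and limma 3.58.1 served as alternatives, with others given at the end. The genes and lists were chosen with earlier results of these data known. Named were all genes of the set; from each list the called genes, up to 4 per direction, and the 2 uncalled genes of highest TPM; and 3 genes nearest in profile to spry2 and to fos (mean of at least 5 CPM, pseudocount 1). One gene that this rule names is not reported here. Gene order and overlap came from the RefSeq table of UCB_Xtro_10.0, which matched 26531 genes. Counts of 463 ribosomal RNA gene models stayed in the library totals. Depth was 25632619 to 29800530 counts per library.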

Additional observations from a re-analysis of the deposited data

How the results depend on the processing

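The genes spry2, fos, fgfr4 and dusp6 kept their direction in all 14 alternatives. For spry2 the log2 fold change was 0.61 to 0.74. The count of genes of the set called higher, 2, was 1 by DESeq2, by limma-voom and on log2 TPM with 1 or 0.1 added, since fos was lost, and 0 to 2 with a library left out. The count called lower, 0, stayed 0 in all alternatives except the fit without Foxh1 MO 1. In that fit the log2 fold change was -0.53 for dusp6, -0.43 for fgfr1 and -0.50 for il17rd. More of all tested genes were called lower there as well. For the other pathway genes the 8 called higher were 10 with upper-quartile factors and without a filter, 9 with the replicate block, 8 with a filter of 1 CPM, 7 by limma-voom and on both log2 TPM scales, 6 by DESeq2 and with a length offset, and 5 to 8 with a library left out. The 1 called lower was 2 by DESeq2, 5 with upper-quartile factors, 5 without a filter, 3 with a filter of 1 CPM, 3 and 5 on log2 TPM with 1 and 0.1 added, 0 with an effective length offset, 5 with the replicate block and 0 to 19 with a library left out. Over all genes the main fit called 574 higher and 560 lower of 13756. These counts were 667 and 803 with upper-quartile factors, and 742 and 862 of 20537 without a filter. With the replicate block they were 546 and 699, and with the effective length offset 563 and 541. The filter of 1 CPM gave 523 and 535 of 12121. The cause of these shifts was not tested. Directions turned only with a library left out, and only for genes not called: fgfr1 ranged from -0.427 to 0.0357, spry1 from -0.419 to 0.0398, etv1 from -0.232 to 0.138 and il17rd from -0.499 to 0.0345 in log2 fold change.

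With the replicate block 2 genes of the set were called higher and 0 lower, as without it. The labels give no shared source for equal numbers, and deviations of same-numbered libraries correlated at -0.08 across genes, so the numbers were not taken to pair the libraries. Fits with a library left out assume that the remaining one varies as the other group does. The counts of etv4, spry3 and all but 4 of 13 ligand genes were too few to test at this depth.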

Other observations

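The neighbours of spry2 and fos, both called, and of fgfr4, not called, were read from gene order in the RefSeq table. They were chosen for naming with their values known. The nearest tested gene on one side of spry2 was slitrk1, which encodes a neuronal membrane protein. It stood at 2.45 and 2.53 CPM in the controls and at 0.584 and 0.415 CPM in the libraries labelled Foxh1 MO, 4.95-fold lower (log2 fold change -2.31, edgeR adjusted p = 0.00166). It was called in all 14 alternatives, from 2.24-fold lower on log2(TPM + 1) to 5.94-fold lower without Foxh1 MO 1. On the other side of spry2, ndfip2 had a log2 fold change of 0.12 (adjusted p = 0.676). The called gene spry2 and its neighbour slitrk1 thus changed in opposite directions. Next to fos, nek9 and LOC116406694 had log2 fold changes of -0.15 and 0.19. Next to fgfr4, nsd1 and znf346 had 0.19 and 0.29. None of these neighbours of fos and fgfr4 was called.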
